A study of Mus musculus with 45 samples.

Results

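The genes described here are 8 cathepsins (Ctsb, Ctsc, Ctsd, Ctsh, Ctsk, Ctsl, Ctss and Ctsz) and Cst3, the gene of cystatin C, in the mouse uterus. They were picked by symbol and all 9 were found among the 24422 gene symbols of the count table. RNA came from sexually mature female CD-1 mice, an outbred stock, of the wildtype (WT) and of the Plag1 knockout genotype (KO, labelled Plag1KO). Plag1 encodes a zinc finger transcription factor. Every mouse, WT and KO alike, had received 5 IU of pregnant mare serum, then 5 IU of human chorionic gonadotropin after 2 days, and was killed on the next day, so no group was free of hormone treatment. From each of 14 mice (7 WT and 7 KO) 3 samples were taken: intact horn (uterus), mucosa scraped off with a blade (endometrium) and the wall left after scraping (myometrium). This gave 6 groups of 7 mice. The females were 1 to 3 months old according to the methods of the superovulation experiments, and the age of each mouse was not given in the sources used here. Those methods also describe mating with WT males, apart from females that gave unfertilised oocytes. Whether each of these mice was mated was not among the sample details used here.

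Cathepsins are proteases of the lysosome. Ctsd is an aspartic endopeptidase, and the other cathepsins named here are cysteine proteases of the papain family: Ctsb, Ctsl, Ctss and Ctsk cut within proteins, Ctsc and Ctsh remove residues from the amino end, and Ctsz acts as a carboxypeptidase. They are made as inactive precursors, carried to the lysosome largely by mannose 6-phosphate receptors and activated there at acid pH. Cystatin C is a secreted, tight-binding inhibitor of the papain family that does not inhibit Ctsd. Cathepsin S is known for processing the invariant chain in antigen-presenting cells, cathepsin K for cutting collagen, and cathepsin C for activating the granule proteases of leukocytes. In the uterus, cathepsins and their inhibitors are known from the remodelling of the mucosa and from the secretions of the glands.

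The genes lie at separate loci, except that Ctsk and Ctss are neighbours on chromosome 3, with 17423 bases between them. In build NCBIM37 (mm9) with GENCODE annotation, Ctsb is at chr14:63741302-63764758 (plus strand), Ctsc at chr7:95426595-95459398 (plus), Ctsd at chr7:149557053-149573943 (minus), Ctsh at chr9:89948990-89970927 (plus), Ctsk at chr3:95303208-95313284 (plus), Ctsl at chr13:64464522-64471614 (minus), Ctss at chr3:95330708-95360325 (plus), Ctsz at chr2:174252994-174264540 (minus) and Cst3 at chr2:148697458-148701428 (minus). No near-identical copy of their 5′ ends was found elsewhere in the genome (0 sites with at least 95% identity over at least 90 of the first 100 bases). Annotated genes overlap Ctsb (Fdft1), Ctsc (Gm17710) and Ctsz (Th1l) on the opposite strand, and Ctsd (6330512M04Rik) and Ctss (Hmgb1-ps5) on the same strand. Whether the counting used strand was not stated, so reads of these pairs may not be separated. Of these overlapping genes Fdft1 alone had a row in the count table, with 14.2 to 66.7 CPM (gene counts scaled to a common library total) over all samples.

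Promoter sequences were taken from RefSeq (table of GRCm38.p6), each a window from 250 bases before to 50 bases after the start of transcription, and placed in NCBIM37 by an exact match. Of the 9 genes, 7 had an entry. The windows of the 4 genes below are shown because they held at least 1 of the 3 words searched on both strands. Each of these 4 genes passed at least 1 test between tissues below, as did Ctsz and Cst3, whose windows held none of the words. CACGTG is the core of the E-box recognised by TFEB and other basic helix-loop-helix factors, TCACGTGA is the same core with the flanks of the element typical of lysosomal genes, and GAGGAAGT is a site of the kind bound by PU.1, a factor of the myeloid lineage. Capitals mark the matches. CACGTG was found in 7.17% of all 32544 promoters in the table, TCACGTGA in 0.983% and GAGGAAGT in 3.11%.
Ctsd, chr7:149573683-149573982, minus strand: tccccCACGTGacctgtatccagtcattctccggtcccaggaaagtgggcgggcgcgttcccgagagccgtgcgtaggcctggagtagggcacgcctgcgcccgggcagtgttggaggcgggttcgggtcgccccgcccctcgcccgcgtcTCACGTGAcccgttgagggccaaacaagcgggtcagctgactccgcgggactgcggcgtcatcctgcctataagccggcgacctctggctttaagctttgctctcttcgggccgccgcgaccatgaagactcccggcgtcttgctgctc
Ctsl, chr13:64471779-64472078, minus strand: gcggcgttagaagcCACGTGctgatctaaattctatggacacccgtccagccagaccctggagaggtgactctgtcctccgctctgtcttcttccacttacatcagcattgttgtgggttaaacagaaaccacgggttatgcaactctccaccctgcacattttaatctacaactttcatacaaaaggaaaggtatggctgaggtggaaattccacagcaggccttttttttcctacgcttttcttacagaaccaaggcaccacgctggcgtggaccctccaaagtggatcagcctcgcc
Ctsc, chr7:95426345-95426644, plus strand: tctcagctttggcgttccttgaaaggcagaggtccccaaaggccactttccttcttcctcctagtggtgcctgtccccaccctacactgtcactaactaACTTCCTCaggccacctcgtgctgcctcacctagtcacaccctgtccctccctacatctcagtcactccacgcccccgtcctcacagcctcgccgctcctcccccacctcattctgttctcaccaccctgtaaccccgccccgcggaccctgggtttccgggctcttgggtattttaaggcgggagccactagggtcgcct
Ctss, chr3:95330458-95330757, plus strand: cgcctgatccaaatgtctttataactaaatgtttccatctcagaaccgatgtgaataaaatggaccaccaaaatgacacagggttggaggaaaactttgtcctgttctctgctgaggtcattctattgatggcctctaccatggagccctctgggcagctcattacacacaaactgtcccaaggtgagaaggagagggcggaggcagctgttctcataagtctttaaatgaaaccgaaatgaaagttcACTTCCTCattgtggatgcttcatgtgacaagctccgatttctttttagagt
The Ctsd window held CACGTG at 245 and at 98 bases before the start, and the second of these lies inside its single TCACGTGA, which begins 99 bases before the start. Ctsl held CACGTG 236 bases before the start. In Ctsc and Ctss the capitals are GAGGAAGT read on the other strand, beginning 151 and 2 bases before the start. None of the 3 words was found in the windows of Ctsk, Ctsz and Cst3. A match is a description of letters and says nothing of binding.

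Expression was measured by STRT RNA-seq, which counts the 5′ ends of polyadenylated transcripts. Depth was 256298 to 2431040 gene counts per mouse and tissue, so that a floor of 3 counts was 1.23 to 11.7 CPM. Plag1 had at most 1 count in any sample (2 of 21 WT and 5 of 21 KO samples had 1), so the genotype labels could not be checked on it. The tissue labels were checked on marker sums. The summed level of 6 smooth muscle markers was 16373 to 40212 CPM in WT myometrium and 21509 to 35717 CPM in KO myometrium. In endometrium it was 440.2 to 4608 CPM in WT and 208 to 1039 CPM in KO, apart from WT mouse 3 (13686 CPM) and KO mouse 13 (13164 CPM). The sum of 6 epithelial markers in WT myometrium was 93.2 to 294 CPM apart from WT mouse 5, at 1030.5 CPM. In KO myometrium this sum was 97.1 to 708 CPM, with KO mice 2 (708 CPM) and 11 (564 CPM) highest. The tests on these tissues were therefore also run without the endometrium of WT mouse 3, that of KO mouse 13 or the myometrium of WT mouse 5, each left out in turn. Levels were recomputed only for KO endometrium without mouse 13, and lists, marker sums and likeness used all samples. Each tissue of a mouse lay in a plate row of its own, rows A and D for uterus, B and E for myometrium and C and F for endometrium, with 1 repeat library of WT mouse 12 and 2 of KO mouse 13 as exceptions, so tissue and plate row cannot be told apart.

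Ctsb was far higher in endometrium and uterus than in myometrium. Its lowest, median and highest levels were 1817, 4703 and 6439.8 CPM in WT endometrium and 4457, 5669 and 7545 CPM in KO endometrium. In the uterus they were 2456, 3050.2 and 4126 CPM in WT and 1434, 4131 and 6631 CPM in KO. Myometrium gave 777, 989 and 2187 CPM in WT and 739, 1303 and 2195 CPM in KO. All KO endometria were above all KO myometria, and all WT uteri were above all WT myometria, whereas the WT endometrium and myometrium groups overlapped through WT mouse 5 alone, whose endometrium was the lowest of its group and whose myometrium was the highest. In the order of the 6 group means, myometrium WT and KO came last, and the step from uterus WT (3209 ± 529 CPM, SD, n = 7) down to myometrium KO (1309 ± 509 CPM) was the only one larger than the spread between mice.

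The aspartic protease Ctsd had a narrow range in myometrium and a very wide one in the mucosa. In myometrium the lowest, median and highest levels were 136, 188 and 261 CPM in WT and 139, 169.9 and 227 CPM in KO. WT endometrium spanned 255, 453 and 1935 CPM, and KO endometrium 288, 365 and 1042 CPM. The uterus gave 184, 444 and 1368 CPM in WT and 193, 358 and 666 CPM in KO. The high end belonged to the same animals in both tissues: WT mice 1 and 12 reached 1292 and 1368 CPM in the uterus and 1935 and 1589.9 CPM in endometrium, where the next WT mouse had 581 and 789 CPM. Their myometria, at 166 and 261 CPM, were not set apart in this way, though that of mouse 12 was the highest in WT, the next being 214 CPM. KO mouse 9 was the highest KO mouse in uterus (666 CPM) and endometrium (1042 CPM). The step from uterus KO (386 ± 175 CPM, n = 7) to myometrium WT (193 ± 39.6 CPM) was the only one beyond the spread.

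Ctss, the cathepsin of antigen-presenting cells, varied widely between mice. Its lowest, median and highest levels were 68.4, 132 and 425 CPM in WT endometrium and 74.9, 196 and 544 CPM in KO endometrium, and 38.4, 65.7 and 106 CPM in WT and 41.1, 75.2 and 171 CPM in KO myometrium. In the uterus they were 64.3, 137 and 491 CPM in WT and 43.6, 195.5 and 334 CPM in KO. The groups overlapped in every pair of tissues. WT mouse 8 was the highest WT mouse in all 3 tissues (491, 425 and 106 CPM in uterus, endometrium and myometrium), and KO mouse 9 the highest KO mouse in all 3 (334, 544 and 171 CPM). The rank of these mice in immune cell markers varied with the list and tissue. The summed level of 10 macrophage and monocyte markers was highest among WT mice in mouse 8 in all 3 tissues (1224, 1046 and 604 CPM). KO mouse 9 was highest in endometrium (1343 CPM) and myometrium (629 CPM) but not in uterus, where mouse 6 was highest (1131 CPM). The 6 leukocyte markers were highest in mouse 8 among WT mice in all 3 tissues (491, 439 and 176 CPM). Among KO mice they were highest in mouse 6 in uterus (399 CPM, mouse 9 having 393 CPM) and endometrium (539 CPM, mouse 9 having 496 CPM) and in mouse 9 in myometrium (194 CPM). For KO mouse 9 the 6 dendritic cell and class II markers were highest among KO mice in all 3 tissues (1607, 3236 and 1645 CPM), while among WT mice they were highest in mouse 8 in uterus (3161 CPM), in mouse 12 in endometrium (2328 CPM) and in mouse 1 in myometrium (1017 CPM). No macrophage, leukocyte or class II marker was at 0 in a whole group. The part of these cells in the level of Ctss was not tested, and in such bulk samples more cells of a type cannot be told apart from more RNA per cell.

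**Figure D1:**
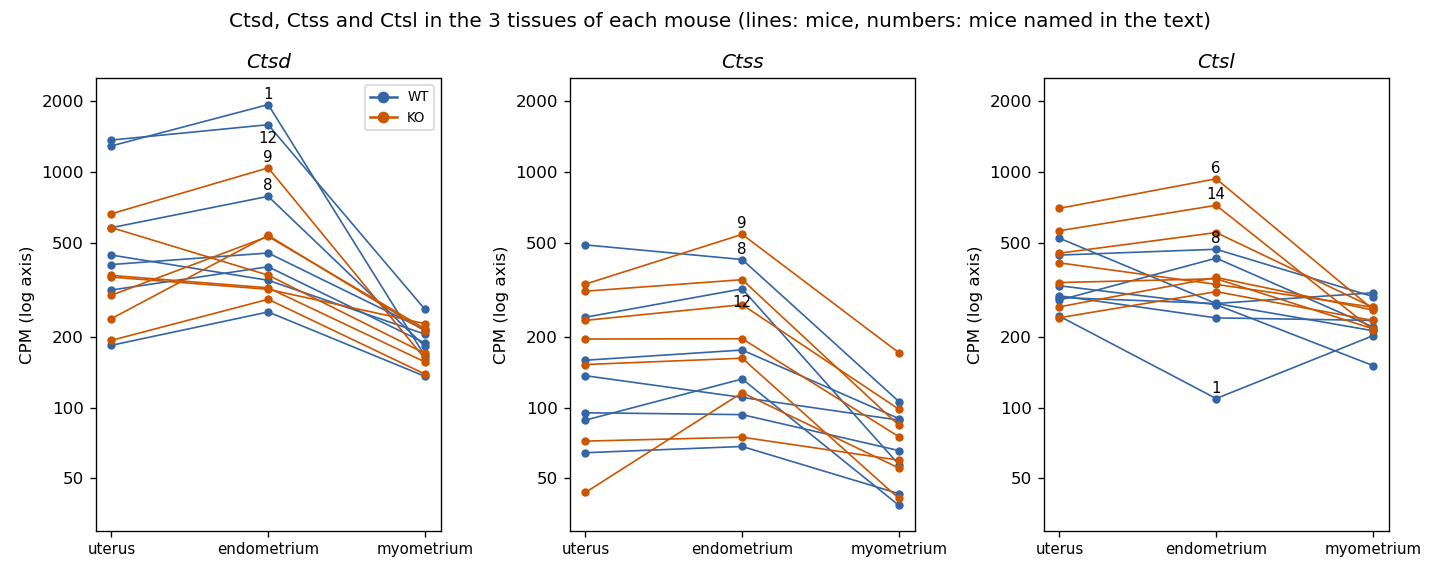
Levels of Ctsd, Ctss and Ctsl (CPM, log axis) in uterus, endometrium and myometrium, with 1 line per mouse, WT in blue and KO in orange, and numbers for mice named in the text. WT mice 1 and 12 lie above the others for Ctsd in uterus and endometrium. In myometrium mouse 1 lies among the others and mouse 12 is highest by a smaller gap. WT mouse 8 and KO mouse 9 lead their groups for Ctss in each tissue.

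Ctsl, an endopeptidase, had a wide range in KO endometrium, with a lowest, median and highest level of 311, 357 and 937 CPM, against 109, 277 and 470.3 CPM in WT endometrium. KO mice 6 and 14 were highest in endometrium (937 and 723 CPM) and in uterus (702 and 564 CPM), while their myometria (261 and 214 CPM) lay within the narrow KO myometrium range of 214 to 267 CPM. WT myometrium spanned 151 to 307 CPM, and the uterus 244 to 524 CPM in WT and 241 to 702 CPM in KO. The lowest value of all 42 samples was the endometrium of WT mouse 1, at 109 CPM, the animal with the highest Ctsd there.

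Ctsc and Ctsh, the aminopeptidases, both had their lowest means in myometrium. In WT mice mean Ctsc was 126 ± 60.4 CPM in endometrium, 104 ± 38.9 CPM in uterus and 62.4 ± 17.5 CPM in myometrium (SD, n = 7), and in KO mice it was 186 ± 86.1, 164 ± 60.1 and 83.1 ± 41.3 CPM. Each neighbouring pair in the order of the 6 means differed by less than the spread. Ctsh was 336 CPM on average in WT endometrium (287 to 484), 446 in KO endometrium (250.1 to 655), 376 in WT uterus (285 to 537), 405 in KO uterus (220.0 to 545), 225 in WT myometrium (144 to 377) and 199 in KO myometrium (156 to 231). Only the step from WT endometrium to WT myometrium was beyond the spread. The highest WT myometrium for Ctsh, Ctsc (91.97 CPM), Ctsb and Cst3 (1607 CPM) was that of mouse 5, the sample with the most epithelial marker RNA in its group. In endometrium the same mouse also had the highest epithelial sum of the WT mice (5290.5 CPM, the next having 2534 CPM) but the lowest Ctsb (1817 CPM).

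For Ctsz, the carboxypeptidase, and Cst3, the inhibitor, no step in the order of means was beyond the spread. In WT mice mean Ctsz was 161 CPM in endometrium, 158 CPM in uterus and 104 CPM in myometrium, and in KO mice it was 169, 134 and 124 CPM. Mean Cst3 was 1684 CPM in WT uterus (1235 to 2215), 1480 in KO endometrium (976 to 2174), 1428 in KO uterus (1010.1 to 1861), 1352 in WT endometrium (937 to 1966), 1167 in WT myometrium (941 to 1607) and 1146 in KO myometrium (808 to 1313).

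Ctsk, the collagen-cutting cathepsin, had the opposite order. Its means in WT mice were 38.7 CPM in myometrium, 30.02 CPM in uterus and 22.8 CPM in endometrium, and in KO mice 39.1, 25.2 and 22.9 CPM, each step being within the spread. In KO endometrium 6 mice lay between 11.8 and 18.5 CPM and mouse 9 at 69.6 CPM, and in WT endometrium mouse 12 had the highest level, 54.1 CPM, against 10.0 to 26.3 CPM in the others. The summed level of 6 stroma and fibroblast markers moved in the same order. Its WT means were 6714 CPM in myometrium, 2689.6 CPM in uterus and 2131 CPM in endometrium, and its KO means 8601, 3011 and 1898 CPM. The sum of 6 smooth muscle markers had this order too, with means of 25796, 12803 and 3659 CPM in WT and 28237, 12735 and 2442 CPM in KO. The parts of stroma and smooth muscle in the level of Ctsk were not tested. In endometrium the stromal sum of KO mouse 9 was 2052 CPM within a KO range of 851 to 2732 CPM. That of WT mouse 12 was 1961 CPM within a WT range of 1553 to 2844 CPM. In uterus KO mouse 9 had the highest stromal sum of the KO mice (5597 CPM, the next having 3116 CPM) and the highest Ctsk (44.6 CPM). The uterus of WT mouse 12 had a stromal sum of 2716 CPM within a WT range of 2196 to 3262 CPM. In myometrium the sums were 5229 CPM (KO mouse 9, KO range 4709 to 13197) and 6962 CPM (WT mouse 12, WT range 5401 to 8769).

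**Figure D2:**
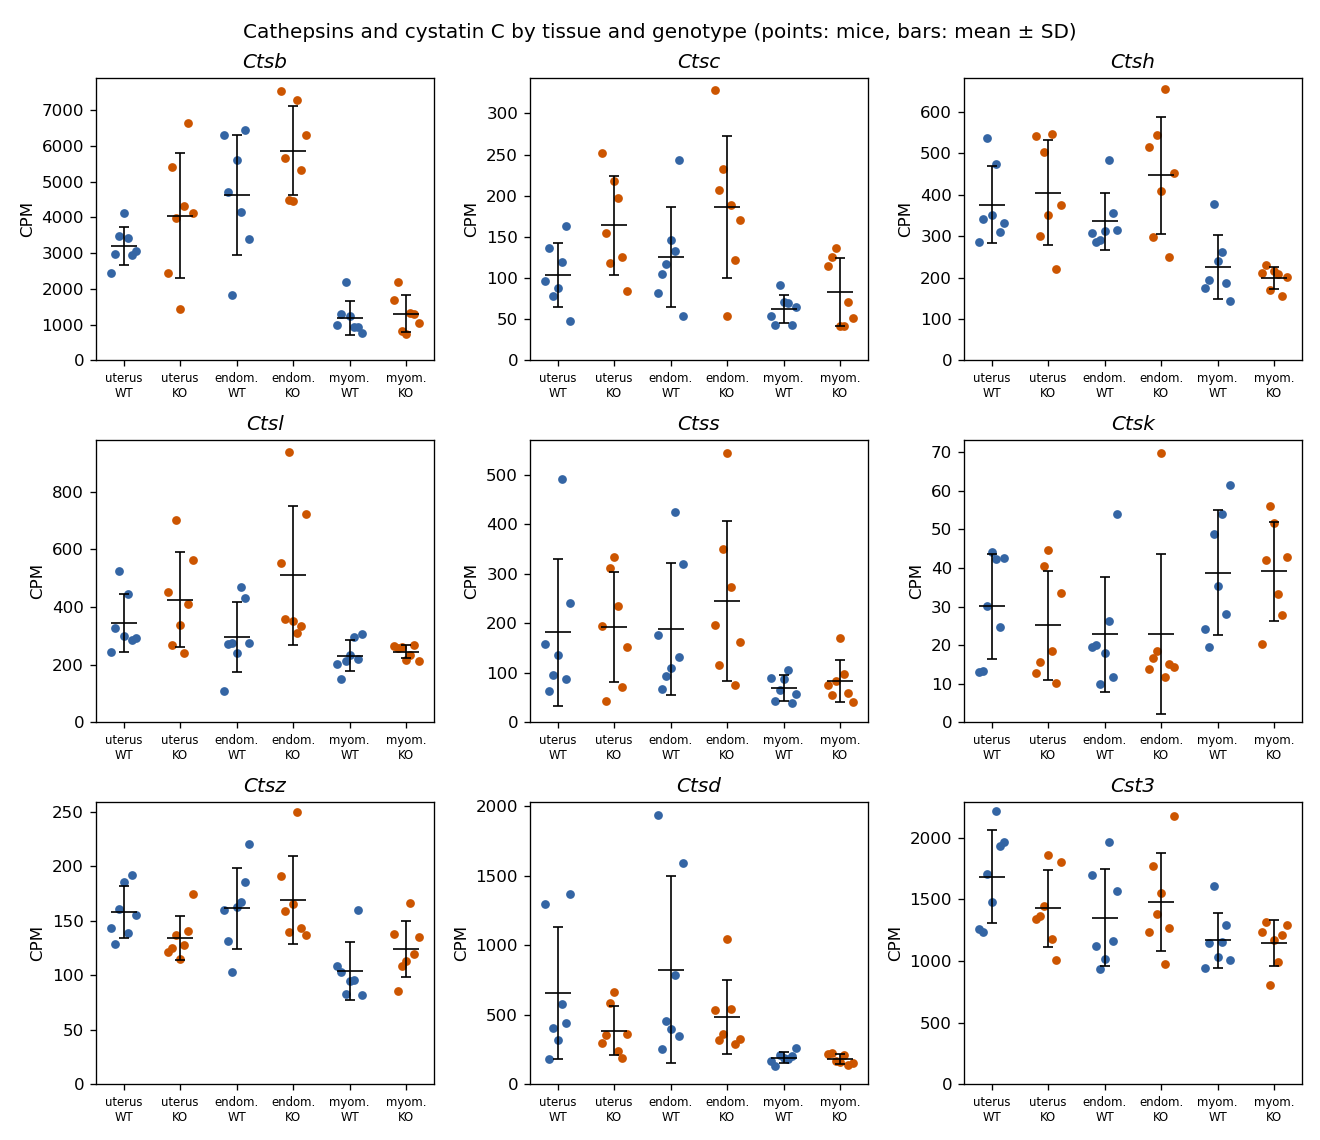
CPM of each of the 9 genes in the 6 groups, with 1 point per mouse (WT blue, KO orange) and bars for mean ± SD, n = 7, on linear axes that start at 0. Ctsb in myometrium is at or below 2195 CPM in every mouse, Ctsd in myometrium at or below 261 CPM, and Ctsk has its highest means in myometrium.

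The comparison of endometrium with myometrium asked which genes differ between the layers of the same uteri. The main tests between tissues had no term for the mouse and so did not pair its tissues, and pairing was run as an alternative. In WT mice 4 of the 9 genes passed the test and all 4 were higher in endometrium, where 13.2% of the 13227 genes tested differed and 6.81% were higher in endometrium. The edgeR quasi-likelihood test gave log2 fold changes of 1.84 ± 0.29 (SE) for Ctsb (adjusted p = 8.11e-05), 1.92 ± 0.35 for Ctsd (adjusted p = 0.00033), 1.32 ± 0.34 for Ctss (adjusted p = 0.00948) and 0.94 ± 0.30 for Ctsc (adjusted p = 0.0382). In these mice Ctsd and Ctss were higher in the endometrium of 7 of 7 mice, Ctsb and Ctsc in 6 of 7. In KO mice 6 of 9 passed, again all higher in endometrium, against 19.3% of the 12969 genes tested, 10.6% being higher in endometrium. These were Ctsb (2.17 ± 0.22, edgeR adjusted p = 8.27e-07), Ctss (1.49 ± 0.35, adjusted p = 0.00365), Ctsd (1.34 ± 0.23, adjusted p = 0.00019), Ctsc (1.16 ± 0.33, adjusted p = 0.0148), Ctsh (1.14 ± 0.21, adjusted p = 0.000402) and Ctsl (1.09 ± 0.27, adjusted p = 0.00496), each of them higher in 7 of 7 KO mice. In folds, Ctsb was 3.59 times higher in WT and 4.50 times higher in KO endometrium.

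The remaining genes did not pass in either genotype. Ctsz had a log2 fold change of 0.53 ± 0.25 in WT (edgeR adjusted p = 0.182) and 0.40 ± 0.20 in KO (adjusted p = 0.169), though it was higher in the endometrium of all 7 mice of each genotype. Cst3 had 0.07 ± 0.22 in WT (edgeR adjusted p = 0.893) and 0.39 ± 0.21 in KO (adjusted p = 0.217). Ctsk was the only member with a negative log2 fold change, -0.82 ± 0.35 in WT (edgeR adjusted p = 0.141) and -0.90 ± 0.35 in KO (adjusted p = 0.0765), lower in 6 of 7 mice of each genotype. With the mouse as a block, which pairs the tissues of an animal, Ctsk passed in KO mice (-0.99, edgeR adjusted p = 0.00967), the other calls being unchanged by the block. Ctsh and Ctsl, past the threshold in KO but not in WT (WT log2 fold changes 0.45 ± 0.24, edgeR adjusted p = 0.257, and 0.27 ± 0.26, adjusted p = 0.6), had interaction terms of 0.70 ± 0.32 and 0.83 ± 0.39, both with an edgeR adjusted p of 0.993, so a difference between genotypes was not shown. None of the 9 genes had an interaction past the threshold (0% of 14314 genes tested, 0 genes also with DESeq2, and an unadjusted p under 0.05 for 2 of the 9 and 4.597% of all genes).

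These calls stood when the endometrium of WT mouse 3, that of KO mouse 13 or the myometrium of WT mouse 5 was left out, each in turn. Scaling by the ERCC spike-ins, synthetic RNAs added in equal amount, moved the median over all genes from 0.01 to 0.21 for WT mice and, for KO mice, from 0.08 to 0.58. The share of calls that were higher in endometrium rose from 51.6% to 67.3% (WT) and from 54.9% to 86.3% (KO), and with this scaling Ctsz (0.90, edgeR adjusted p = 0.0253) and Cst3 (0.83, adjusted p = 0.0247) passed in KO. Within plate rows A to C the log2 fold changes in WT were 1.57 for Ctsb, 1.82 for Ctsd, 0.93 for Ctss and 0.65 for Ctsc, of which Ctsb and Ctsd passed the test with 5 mice. In KO mice the 6 called genes ranged from 0.95 to 1.89 in rows A to C (3 mice) and from 0.89 to 2.34 in rows D to F (4 mice), with 4 of the 6 passing in either block.

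Against the intact uterus, myometrium was lower in most of these genes. In WT mice 8 of 9 were lower in myometrium, among 12% of 13104 genes tested that differed and 6.73% that were lower. Log2 fold changes were -1.91 ± 0.33 for Ctsd (edgeR adjusted p = 0.000823), -1.55 ± 0.36 for Ctss (adjusted p = 0.007), -1.55 ± 0.21 for Ctsb (adjusted p = 9.07e-05) and -0.92 ± 0.27 for Ctsc (adjusted p = 0.0257). Ctsh, Ctsz, Ctsl and Cst3 followed with -0.86, -0.74, -0.73 and -0.66, with edgeR adjusted p-values of 0.0118, 0.0138, 0.0145 and 0.0168. Ctsd, Ctsb, Ctss, Ctsh, Ctsz and Cst3 were lower in the myometrium of 7 of 7 WT mice. In KO mice 7 of 9 were lower, with 14.1% of 12970 genes differing and 8.03% lower: Ctsb had -1.94 ± 0.29, Ctss -1.38 ± 0.34, Ctsd -1.26 ± 0.23, Ctsh -1.22 ± 0.20, Ctsc -1.17 ± 0.28, Ctsl -1.04 ± 0.23 and Cst3 -0.51 ± 0.17, with edgeR adjusted p-values from 5.4e-05 (Ctsb) to 0.0384 (Cst3). Ctsz (-0.33 ± 0.21, edgeR adjusted p = 0.314) passed in WT and not in KO, and this difference between genotypes was not tested. Ctsk had 0.24 ± 0.31 in WT (edgeR adjusted p = 0.672) and 0.46 ± 0.33 in KO (adjusted p = 0.381), a sign that turned under spike-in scaling.

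The Cst3 call in KO mice was lost with the mouse as a block (edgeR adjusted p = 0.0522), without a gene filter (adjusted p = 0.0559) and with all 6 groups in a single fit (adjusted p = 0.072). That single fit also ended the WT calls for Ctsc (edgeR adjusted p = 0.0676) and Ctsl (adjusted p = 0.0875). Spike-in scaling moved the median of all genes to -0.75 in WT and -0.42 in KO and the share of calls that were higher in myometrium from 44.1% to 2.91% (WT) and from 43.0% to 7.12% (KO), while the 8 WT and 7 KO genes stayed lower, and Ctsz passed in KO (-0.75, edgeR adjusted p = 0.0354). Within a block of plate rows every called gene kept its negative sign, but calls were lost with the fewer mice. In WT mice Ctsc, Ctsh, Ctss and Cst3 did not pass within rows A to C (edgeR adjusted p from 0.0671 to 0.179). In KO mice Ctsc, Ctsl, Ctss and Cst3 did not pass within rows A to C (edgeR adjusted p from 0.0626 to 0.204), and Ctsh, Ctsl, Ctss and Cst3 did not pass within rows D to F (edgeR adjusted p from 0.0595 to 0.448).

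Endometrium and uterus did not differ in any of the 9 genes by the test, in WT (1.6% of 13091 genes tested differed) or in KO (1.25% of 12961). An unadjusted p under 0.05 was reached by 1 of the 9 in WT, Cst3 (-0.57 ± 0.21, edgeR adjusted p = 0.185), and by 0 in KO, and DESeq2 with the same genes called 474 genes in WT and 431 in KO and, of the 9, none. The log2 fold changes in WT mice ran from -0.57 to 0.31, in KO mice from -0.42 to 0.25. Uterus samples carried smooth muscle marker RNA of 8650 to 18574 CPM in WT and 9801 to 20386 CPM in KO, above every endometrium other than those of WT mouse 3 and KO mouse 13. The comparisons between tissues share samples, so their directions are not independent of each other.

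**Figure D3:**
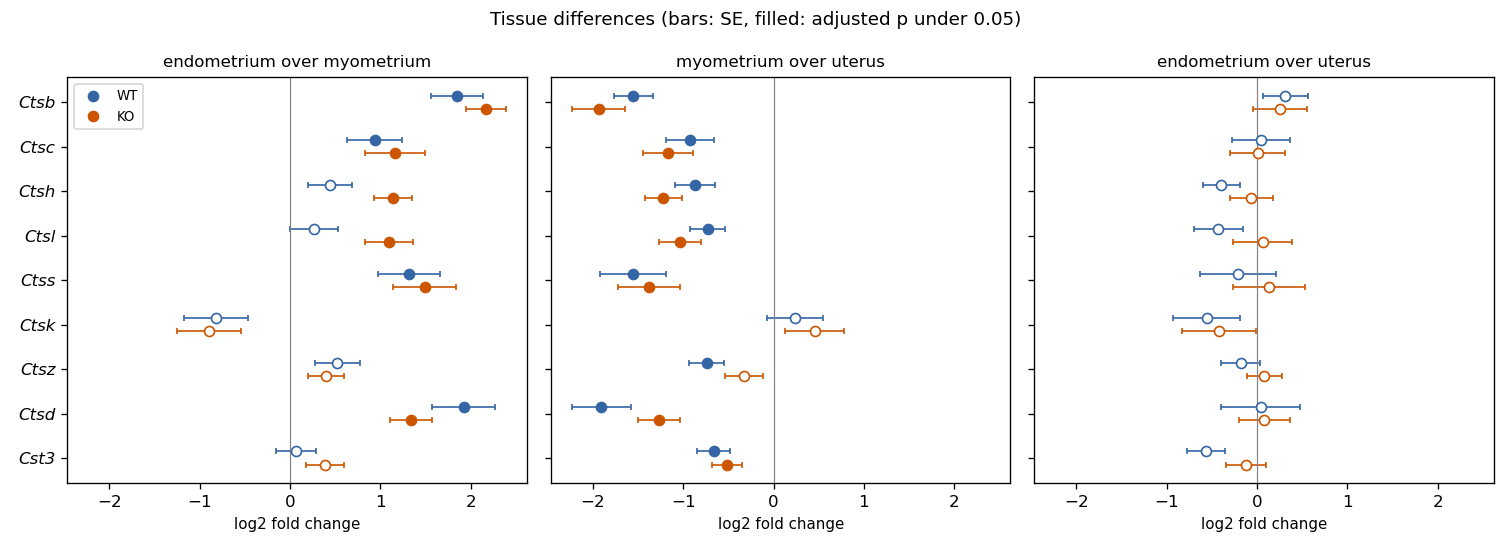
Log2 fold changes between tissues for the 9 genes, with bars for SE, WT in blue and KO in orange, and filled points for an edgeR adjusted p under 0.05. The points of Ctsb, Ctsc, Ctsd and Ctss are filled in both genotypes in the first 2 panels, and no point is filled for endometrium over uterus.

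KO and WT mice were compared to ask whether Plag1 affects these genes. None of the 9 genes passed the test in uterus, endometrium or myometrium, as was the case for all genes tested (0% of 12959, 0% of 13004 and 0% of 12991, edgeR). An unadjusted p under 0.05 was reached by 1 of the 9 in uterus, 2 in endometrium and 0 in myometrium, against 5.64%, 5.20% and 4.22% of all genes, and DESeq2 called 0, 1 and 0 genes, none of them among the 9. Ctsl in endometrium had 0.92 ± 0.34 (edgeR adjusted p = 0.891), with the WT and KO ranges overlapping, and the value was 1.36 within plate rows A to C and 0.34 within rows D to F. Ctsh in endometrium had 0.51 ± 0.24 (edgeR adjusted p = 0.946), 0.62 and 0.37 within the blocks of rows.

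Ctsc had positive values in each tissue, 0.68 ± 0.27 in uterus (edgeR adjusted p = 0.789), 0.65 ± 0.36 in endometrium (adjusted p = 0.958) and 0.43 ± 0.27 in myometrium (adjusted p = 1). It had 0.81 within rows A to C and 0.60 within the other rows in uterus, but 1.27 and -0.17 in endometrium. Ctsd had -0.71 ± 0.36 in uterus (edgeR adjusted p = 0.872) and -0.66 ± 0.38 in endometrium (adjusted p = 0.959), where WT mice 1 and 12 set the upper end of the WT range, and -0.06 ± 0.18 in myometrium (adjusted p = 1). Its values within the blocks of rows were -0.28 and -1.33 in uterus and -0.67 and -0.86 in endometrium. For Ctsb the values were 0.49 ± 0.28 in uterus and 0.42 ± 0.26 in endometrium, with edgeR adjusted p-values of 0.889 and 0.959. The other values, for Ctsk, Ctss, Ctsz and Cst3 in each tissue, Ctsh and Ctsl in uterus and myometrium and Ctsb in myometrium, lay between -0.19 and 0.45.

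**Figure D4:**
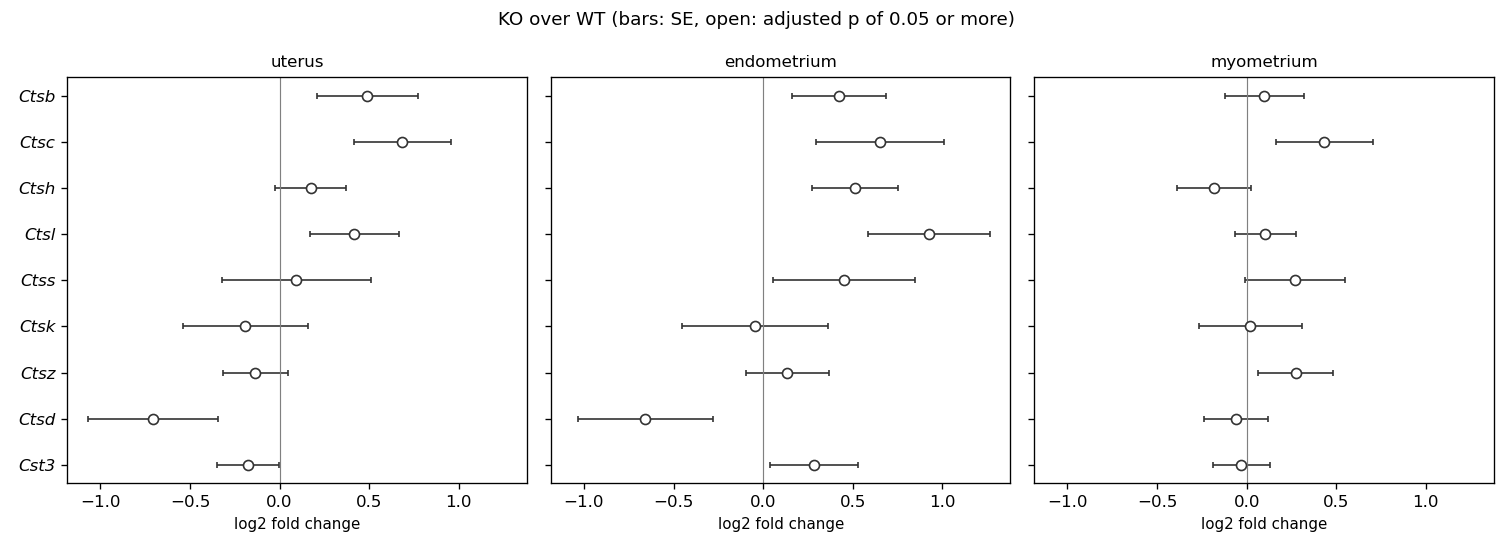
Log2 fold changes of KO over WT for the 9 genes in uterus, endometrium and myometrium, with bars for SE and open points for an edgeR adjusted p of 0.05 or more. All 27 points are open, the highest being Ctsl in endometrium at 0.92 and the lowest Ctsd in uterus at -0.71.

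The level of the inhibitor gene was set against that of the protease genes as the log2 ratio of Cst3 CPM to the summed CPM of the 8 cathepsins, a ratio within each sample that does not depend on scaling. In WT mice it was -0.85 ± 0.20 in myometrium, -1.61 ± 0.27 in uterus and -2.27 ± 0.45 in endometrium (SD, n = 7), and in KO mice -0.97 ± 0.32, -2.004 ± 0.64 and -2.45 ± 0.51. Every endometrium, at -1.75 or lower, was below every myometrium, at -1.29 or higher. The sum of the cathepsins was 2122 CPM in myometrium, 5061 CPM in uterus and 6586 CPM in endometrium for WT mice, and 2266, 5784 and 7935 CPM for KO mice. Its largest part was Ctsb, with means of 1197 CPM in WT myometrium and 4630 CPM in WT endometrium, so the ratio follows Ctsb most. The sum also includes Ctsd, which cystatin C does not inhibit. These values describe genes with different layer differences and were not tested.

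**Figure D5:**
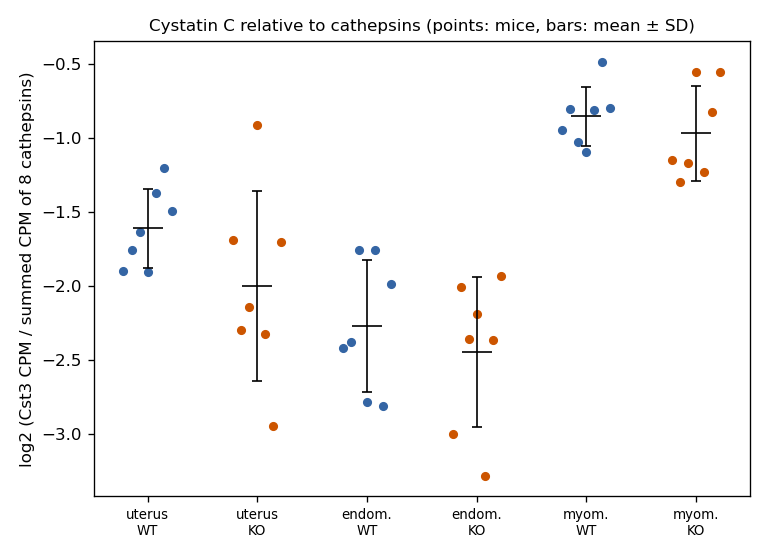
Log2 ratio of Cst3 CPM to the summed CPM of 8 cathepsins, with 1 point per mouse (WT blue, KO orange) and bars for mean ± SD, n = 7. The myometrium means, -0.85 and -0.97, are the highest and the endometrium means, -2.27 and -2.45, the lowest.

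Other genes of the lysosome were described by lists, whose counts stand against 6.81% (WT) and 10.6% (KO) of all genes tested being higher in endometrium and 6.39% and 8.71% being lower. Among other cathepsins, 5 of 15 in the table could be tested between endometrium and myometrium: 1 was higher in endometrium in WT and 3 in KO, none lower, with list medians of 0.65 and 1.21 against 0.01 and 0.08 over all genes. The smallest p belonged to Ctsw, a cathepsin of cytotoxic lymphocytes, in WT (2.20 ± 0.39, edgeR adjusted p = 0.000278) and to Ctsa, a carboxypeptidase that protects neuraminidase, in KO (1.21 ± 0.21, adjusted p = 0.000191). None of 3 tested cystatins and stefins of 17 in the table passed in either genotype (medians 0.04 and 0.06).

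Of 13 genes for lysosomal trafficking and processing, 1 was higher and 1 lower in WT and 2 were higher and 2 lower in KO (medians 0.39 and 0.24), the WT shares being near those over all genes. The 2 mannose 6-phosphate receptors, which carry cathepsins to the lysosome, differed in direction in KO mice. Igf2r, the large receptor, was lower in endometrium in WT (-1.33 ± 0.33, edgeR adjusted p = 0.00608) and in KO (-0.87 ± 0.29, adjusted p = 0.0347), and M6pr, the small one, was higher in KO (1.28 ± 0.19, adjusted p = 4.5e-05). Among 11 lysosomal membrane genes 0 passed in WT and 1 in KO, Scarb2, the receptor that carries glucocerebrosidase (1.37 ± 0.25, edgeR adjusted p = 0.000326), with list medians of 0.10 and 0.18.

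Acid hydrolases were 4 of 29 higher and 0 lower in WT and 9 higher and 2 lower in KO (medians 0.34 and 0.39), led by Neu1, the lysosomal sialidase, in WT (1.503 ± 0.35, edgeR adjusted p = 0.00375) and KO (1.99 ± 0.31, adjusted p = 7.1e-05). For the vacuolar ATPase, the proton pump that acidifies the lysosome, 2 of 16 subunit genes were higher in WT and 5 in KO with 0 lower (medians 0.33 and 0.45). They were led by Atp6v1b2 in WT (1.54 ± 0.33, edgeR adjusted p = 0.00192) and Atp6v1e1 in KO (1.14 ± 0.20, adjusted p = 0.000253). Between KO and WT mice, 0 genes of these lists passed in any tissue.

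Marker sums of several cell types also differed between the layers. The 10 macrophage and monocyte markers summed to means of 712 (WT) and 823 (KO) CPM in endometrium, 849 and 829.7 CPM in uterus and 461 and 492 CPM in myometrium, with ranges of 436 to 1046 CPM in WT endometrium against 362 to 604 CPM in WT myometrium. The 6 leukocyte markers had means of 275 and 315 CPM in endometrium, 325 and 292 CPM in uterus and 151 and 168 CPM in myometrium. For the 4 endothelial markers the layers were close, with means of 113 and 101 CPM in endometrium, 86.6 and 74.7 CPM in uterus and 101 and 91.7 CPM in myometrium. The 6 epithelial markers had means of 2324 and 2788 CPM in endometrium, 1342 and 1935 CPM in uterus and 328 and 393 CPM in myometrium. The means of Ctsb, Ctsc, Ctsd, Ctss and Ctsz had this order of tissues in both genotypes, and those of Ctsh, Ctsl and Cst3 in KO alone. The endometrium of WT mouse 5 (299973 gene counts) had the highest epithelial sum of its group but the lowest Ctsb. In KO uterus mouse 13 was highest in both (2827 CPM for the epithelial sum, 6631 CPM for Ctsb) and mouse 9 lowest in both (1022 and 1434 CPM). In WT uterus mouse 1 was lowest in both, but different mice were highest. In KO endometrium and KO myometrium the highest and the lowest mice for Ctsb were not those for the epithelial sum. The parts of leukocytes and epithelium in the layer differences of the cathepsins were not tested.

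The genes most like each of the 9 were listed by Spearman's rho of log2 CPM over the 42 samples, among 2866 genes of sufficient level outside the 9. The samples share mice and fall into 3 tissues, so rho describes mainly the layers. Nearest to Ctsb were Tmed10 (0.92), Emb (0.91) and Gmds (0.91), and nearest to Ctsd were Cdo1 (0.90), Msx1 (0.88) and Ifitm1 (0.88). Ctss was nearest to C1qb (0.86), Muc1 (0.85) and C1qa (0.84), of which the C1q genes, for subunits of the first complement component, are also macrophage markers of the list above. Ctsh had Vamp8 (0.87), Fuca1 (0.87) and Cxcl17 (0.85), and Ctsc had Sec61b (0.82), 2410015M20Rik (0.79) and Ssr4 (0.77). Ctsl had Mgst1 (0.76), Gstt3 (0.76) and 1810011O10Rik (0.75), and Ctsz had Ten1 (0.77), Las1l (0.76) and Etfb (0.72). Ctsk had Ddah2 (0.75), Cmtm3 (0.73) and Hadh (0.73), and Cst3 had Surf1 (0.69), Apoe (0.65) and 2510002D24Rik (0.65). Among the 9 themselves, Ctsh and Ctss (0.71) and Ctsd and Ctss (0.71) were most alike, and Ctsc and Ctsk and Ctsb and Ctsk were least alike (-0.56 each).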

How the data were processed

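The authors deposited raw counts, whole numbers per gene symbol, for 45 libraries of a single 46-plex STRT pool, made from 10 ng of RNA each, with 92 ERCC spike-ins. The labels name the build mm9 and HTSeq, while the methods of the study name joining of reads by molecular identifier, TopHat and Homer counting over UCSC models. Strand use and reads with several positions were not stated. Groups came from titles and 0 columns were left unmapped. The 3 endometrium libraries of KO mouse 13 and the 2 myometrium libraries of WT mouse 12 were added up, which left 1 sample per mouse and tissue.

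CPM used gene totals without ERCC. Tests were edgeR 4.0.16 quasi-likelihood tests (R 4.3.3) with TMM factors on the groups compared, for genes reaching 1 CPM in 5 or more samples, Benjamini-Hochberg adjusted over all genes tested (threshold 0.05), checked on simulated counts. Alternatives were DESeq2 1.42.0, other scaling, filters and samples, and the mouse as a block. The mouse number joins tissues of the same animal, and same-numbered samples had mean correlations of deviations of 0.08 to 0.18.

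Named are the 9 genes, the list gene with the smallest p per genotype if it passed, and the 3 genes with the highest rho per member (average log2 CPM of at least 5, prior count 2). Beyond this rule, Igf2r in KO mice was named after its value was seen. Neighbours in an order of means were within the spread if they differed by less than the larger SD. The genes and lists were chosen with earlier results of these data known. Floors cover counting error only.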

Additional observations from a re-analysis of the deposited data

Results flagged for a closer look

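In 3 of 54 groups of 7 mice, 1 sample lay far from the others by Dixon's criterion, which chance alone meets in about 5% of groups. Ctsh in WT endometrium was 484 CPM in mouse 8. The macrophage marker sum there was highest in mouse 8 (1046 CPM), while mouse 12, with 1014 CPM, had 314 CPM of Ctsh. The part of macrophages in this value was not tested. Ctsk in KO endometrium was 69.6 CPM in mouse 9. Ctsz in WT myometrium was 160 CPM in mouse 10 (159.5 CPM before rounding).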

How the results depend on the processing

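Of 936 log2 fold changes of the 9 genes under the alternatives, 909 kept their side of the threshold, 23 lost it, 4 gained it and 0 called values turned in sign, whereas 39 values that were not called did. The 936 values include KO against WT, endometrium against uterus and the interaction, where none of the 9 genes was called under any setting. With these comparisons counted too, the number of the 9 genes called stayed within 1.5 times in 100 of 104 cases. The exceptions were single blocks of plate rows, added after seeing the data and holding fewer mice: within rows A to C 2 genes were called for endometrium against myometrium in WT, 4 for myometrium against uterus in WT and 3 for myometrium against uterus in KO, and within rows D to F 3 for the last. In WT mice rows D to F held 2 mice and were not run for tissues. With the mouse as a block, the pairing changed only the calls of Ctsk (-0.99) and Cst3 (-0.51) in KO given above. Leaving out the endometrium of WT mouse 3 or KO mouse 13 or the myometrium of WT mouse 5 changed no call of the 9. Of all genes, endometrium against uterus varied most: 210 calls in WT became 474 with DESeq2, 518 with spike-in scaling, 439 with all groups in a single fit and 671 with the block, and 162 in KO became 431, 20, 346 and 475, and 342 without mouse 13. Spike-in scaling gave 4567 calls for myometrium against uterus in WT in place of 1579. The interaction had 10 calls with the block in place of 0, and KO against WT had 7 in endometrium with all groups in a single fit and 1 and 3 in myometrium with spike-in scaling and without a filter, none of them among the 9. Depth limits Ctsk most, with as few as 3 counts in a sample.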
